A study of Homo sapiens with 3 samples.

Results

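The dual-specificity phosphatases of the MAP kinases were read in THP-1 macrophages that had or had not been given imiquimod and DMD. The members were the genes DUSP1, DUSP2, DUSP4, DUSP5, DUSP6, DUSP7, DUSP8, DUSP10, DUSP14, and DUSP16, taken by the gene name that the scanner output gives to each transcript probe. They are 10 of the 43317 gene names on the array and were covered by 12 probes, of which DUSP8 had 3 and each other member had 1. The THP-1 line comes from a human monocytic leukemia. All cells, the controls included, had been differentiated into macrophage-like cells with the phorbol ester PMA at 100 ng/mL and then left overnight in fresh medium. The groups were macrophages left untreated (Ctrl), macrophages given imiquimod (IMQ), which binds toll-like receptors, and macrophages given DMD and then IMQ (IMQ+DMD). DMD is a benzenoid from the fungus Antrodia cinnamomea. The labels of the last group write IMQ+X, and X was read as DMD because the treatment protocol names no other compound. The labels give 4 h for each group and no dose, whereas the general methods of the paper describe a longer IMQ exposure of THP-1 cells. Each group was 1 RNA sample on 1 one-color array, and the 3 arrays lay on 1 slide. There was therefore no replicate, and no difference between groups was tested or given a p-value. A difference in RNA level between cells and a difference in the share of cells that carry the RNA cannot be told apart in these bulk samples.

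MAP kinases are switched on when an upstream kinase phosphorylates a threonine and a tyrosine in their activation loop, and dual-specificity phosphatases switch them off by removing the phosphate from both residues. Members differ in place and target. DUSP1, DUSP2, DUSP4, and DUSP5 are nuclear and inducible, DUSP6 and DUSP7 are cytoplasmic and prefer ERK, and DUSP8, DUSP10, and DUSP16 prefer JNK and p38. DUSP14 is a small, atypical phosphatase without the MAP kinase-binding domain of the others. Several of these genes are transcribed in response to the kinases that they inactivate, which makes them feedback inhibitors, and DUSP1 is known in macrophages as a brake on cytokine production after toll-like receptor ligands.

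The promoters of DUSP1, DUSP2, and DUSP8 are shown as examples and do not cover the range of values. DUSP1 had the largest difference after IMQ, DUSP2 was near its Ctrl level after IMQ+DMD, and DUSP8 had a log2 difference of 0.34 after IMQ. DUSP7, with the lowest value after IMQ, is not shown. Among members with a promoter entry, only the genes shown held a match to the cAMP response element or the E-box. The sequences are from RefSeq (GRCh38.p14) and run 5′ to 3′ over the 250 bases before a transcript start in the RefSeq promoter table, all on the minus strand of the chromosome. For DUSP1 and DUSP2 that start is the 5′ end of the gene span, whereas for DUSP8 it lies 577 bases inside the span, so the DUSP8 window is inside the gene. Capitals mark matches, on either strand, to the cAMP response element (TGACGTCA), the E-box (CACGTG), the GC box (GGGCGG), and the TATA box (TATAAA). The AP-1 site (TGANTCA) was also searched, and no motif contains another.
DUSP1 promoter, chr5:172771196-172771445: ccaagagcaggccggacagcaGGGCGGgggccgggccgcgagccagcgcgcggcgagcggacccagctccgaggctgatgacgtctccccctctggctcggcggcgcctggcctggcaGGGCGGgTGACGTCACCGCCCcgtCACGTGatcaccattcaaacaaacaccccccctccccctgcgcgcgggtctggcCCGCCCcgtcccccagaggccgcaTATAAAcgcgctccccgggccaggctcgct
DUSP2 promoter, chr2:96145441-96145690: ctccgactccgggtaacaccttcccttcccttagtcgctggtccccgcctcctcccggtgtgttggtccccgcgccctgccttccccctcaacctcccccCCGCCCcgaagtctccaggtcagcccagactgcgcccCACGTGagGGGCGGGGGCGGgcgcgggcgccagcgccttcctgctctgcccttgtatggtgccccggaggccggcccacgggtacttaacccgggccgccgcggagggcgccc
DUSP8 promoter, chr11:1572272-1572521: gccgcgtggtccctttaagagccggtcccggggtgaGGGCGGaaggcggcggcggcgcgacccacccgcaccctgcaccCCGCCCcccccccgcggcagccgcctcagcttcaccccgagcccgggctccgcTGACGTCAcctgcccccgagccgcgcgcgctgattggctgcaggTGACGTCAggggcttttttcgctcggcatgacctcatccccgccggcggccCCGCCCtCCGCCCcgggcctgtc

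The promoter table held 9 transcript starts for 8 members, 2 of them for DUSP10, and had no entry for DUSP4 and DUSP5. Of the 9 windows, 6 abut the 5′ end of the gene span, and 3 (DUSP8, DUSP14, and the second of DUSP10) belong to a start inside it. The cAMP response element was found in the window of DUSP1, with 1 match that ends 118 bases before the start, and in that of DUSP8, with 2 matches. Among all 35116 promoters in the table, 1.65% held it in the same window. The E-box was found in DUSP1 and DUSP2, against 6.34% of all promoters, and the TATA box in DUSP1, against 10.7%. The GC box was found in 8 of the 9 member promoters, against 42.6% of all, and DUSP6 had no match to any of the 5 motifs. The AP-1 site was found in 0 of the 9, against 6.57% of all. What part any of these motifs plays in the values of the phosphatases was not tested.

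Probes of 60 bases read the genes. Those of DUSP2, DUSP10, and DUSP7 and the middle probe of DUSP8 by brightness were taken to lie in protein-coding sequence from their open reading frames, without a transcript file to check it, and they are shown in the direction of the transcript with their hg19 positions, all on the minus strand. Each has at least 1 reading frame without a stop codon, which over 60 bases cannot show that a probe is coding. The probes of DUSP7 and DUSP8 cover 1535 and 254 bases of the genome, so they cross an exon junction.
DUSP2 probe, chr2:96809903-96809962: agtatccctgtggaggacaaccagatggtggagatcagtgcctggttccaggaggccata
DUSP10 probe, chr1:221875773-221875832: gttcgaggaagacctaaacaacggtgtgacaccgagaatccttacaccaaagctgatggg
DUSP7 probe, chr3:52088352-52089886: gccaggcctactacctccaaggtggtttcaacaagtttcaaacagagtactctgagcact
DUSP8 probe, chr11:1579141-1579394: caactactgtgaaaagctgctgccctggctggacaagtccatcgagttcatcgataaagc

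The intensity of a probe is the fluorescence of the Cy3-labeled RNA bound to it, as quantile normalized by the authors. The array had 58201 transcript probes, and the scanner software rated 72.0% (Ctrl), 66.6% (IMQ), and 71.9% (IMQ+DMD) of them well above background. Every one of the 12 member probes had this rating on each array, and 0 of their spots had an outlier mark or were saturated. As a check of the labeled cell type, 8 of the 10 monocyte and macrophage markers were found by name and all 8 were well above background on every array. Their summed intensity was 642859 in Ctrl, 539684 in IMQ, and 522960 in IMQ+DMD. Their median log2 difference was -0.33 in IMQ against Ctrl, with 1 of 8 above 0. It was -0.23 in IMQ+DMD against Ctrl, with 2 of 8 above 0. In IMQ+DMD against IMQ it was 0.02, with 5 of 8 above 0. CD14, at 21875, 13399, and 9436, was the lowest of them in that comparison (-0.51), and MRC1 was the highest (0.64). CD68 and LYZ were not analysed here. All 4 T cell markers (summed intensity 623 to 722) and all 4 B cell markers (3857 to 4733) were also rated well above background on every array, as were 2 of 3 neutrophil, 2 of 4 keratinocyte, and 2 of 4 fibroblast markers. EPCAM, COL1A2, COL3A1, and CEACAM8 were above background on none. What part these levels play in the values of the phosphatases was not tested.

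**Figure D1:**
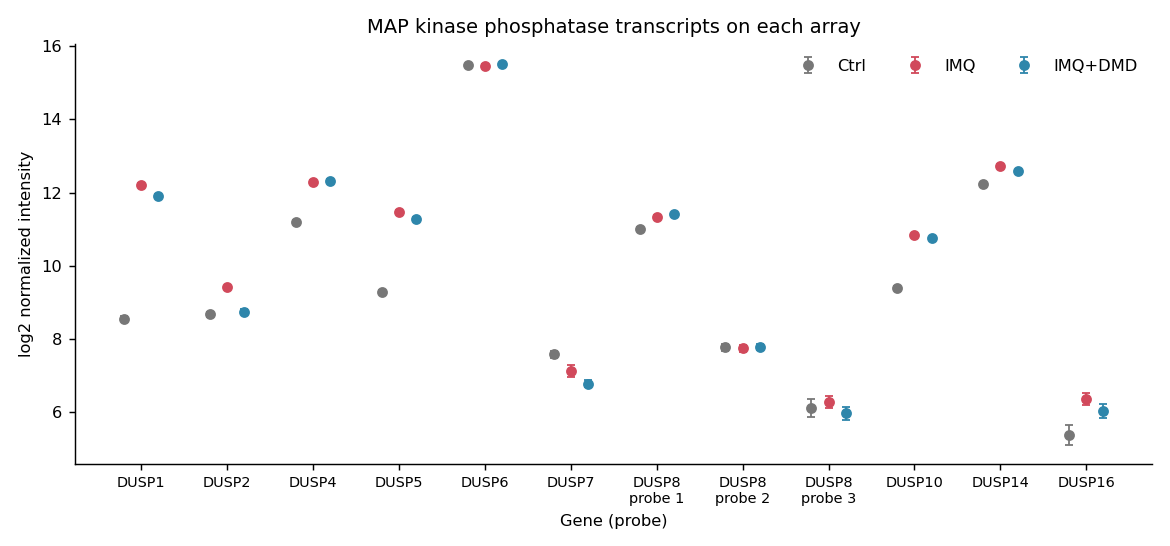
Log2 normalized intensity (vertical axis) of the 12 member probes (horizontal axis) on the Ctrl, IMQ, and IMQ+DMD arrays; bars are the median SD of repeated spots of like brightness on that array. Within a probe, the IMQ and IMQ+DMD points of DUSP1, DUSP4, DUSP5, and DUSP10 lie well above the Ctrl point, those of DUSP6 lie together, and those of DUSP7 lie below.

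IMQ against Ctrl compared these transcripts with and without the toll-like receptor ligand. DUSP1, DUSP5, DUSP10, and DUSP4 were at least 2-fold higher after IMQ, DUSP6 was level, and DUSP7 was lower by less than 2-fold. The 4 members that were at least 2-fold higher compare with 4.2% of the 31871 genes measured. At least 2-fold lower were 0 of the 10 members, against 3.6% of all genes. The median log2 difference of the members was 0.85, with 8 above 0, and that of all genes was -0.02. Beside the log2 difference of each member stands its technical SD, which combines the median SD of repeated spots of like brightness on the 2 arrays. It covers the noise within an array and neither the cultures nor the labeling. By that measure, 8 members were higher by more than 2 technical SDs, against 20.1% of all genes with such an SD, and 1 was lower, against 21.2%. DUSP6 lay within them.

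Among the nuclear, inducible phosphatases, all 4 were higher after IMQ and 3 by at least 2-fold. The normalized intensity of DUSP1, which acts on p38, JNK, and ERK, was 377 in Ctrl, 4722 in IMQ, and 3849 in IMQ+DMD. The difference between IMQ and Ctrl was 12.5-fold, or 3.65 ± 0.08 (technical SD) on the log2 scale, which ranked 51 from the top of the 31871 genes. DUSP1 was the only member whose probe was printed 10 times on each array. Its spots ranged from 342 to 391 (median 381) in Ctrl, from 4458 to 4963 (median 4692) in IMQ, and from 3719 to 4126 (median 3815) in IMQ+DMD. The spots of the 3 arrays did not overlap, and their SD was 0.06, 0.05, and 0.05 log2 units. The highest Ctrl spot was thus far below the lowest spot of both treated arrays. How many of the other probes with 10 spots also had no overlap was not counted. The spots measure noise within an array, so their separation is not evidence of a difference between treatments.

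**Figure D2:**
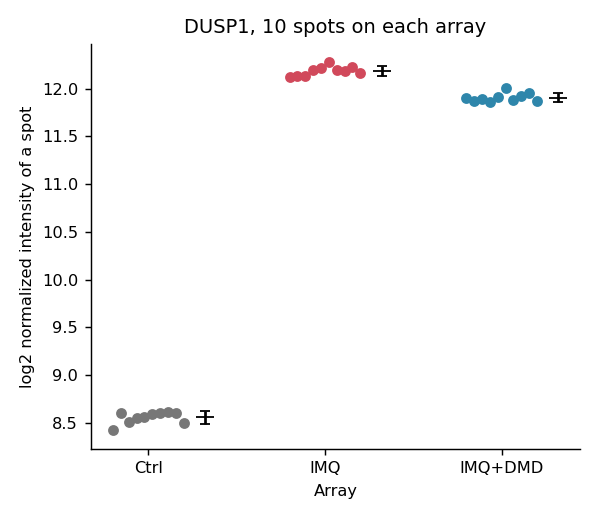
Log2 normalized intensity of the 10 DUSP1 spots on each array (colored points, vertical axis) with their mean and SD (black), for Ctrl, IMQ, and IMQ+DMD. The spot means are 8.55, 12.19, and 11.91, and the spots show the noise within 1 array, not between cultures.

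DUSP5, which acts on ERK in the nucleus, was at 630 in Ctrl, 2836 in IMQ, and 2498 in IMQ+DMD. It was 4.50-fold higher after IMQ (log2 difference 2.17 ± 0.07) and ranked 230 from the top. DUSP4, which acts on ERK and JNK, was at 2372 in Ctrl, 5031 in IMQ, and 5125 in IMQ+DMD, a 2.12-fold difference after IMQ (1.08 ± 0.07). Its value was close to the threshold, and it was 0.53 with scaling to spike-in probes. DUSP2, a phosphatase known from activated leukocytes, was at 409 in Ctrl, 685 in IMQ, and 429 in IMQ+DMD. It was 1.67-fold higher after IMQ (0.74 ± 0.08), short of 2-fold. By these values only its IMQ array stood apart from the others, which depended on the scaling. With spike-in probes DUSP2 was 0.15 after IMQ, and IMQ+DMD was at -0.29 against Ctrl.

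The cytoplasmic ERK phosphatases had no higher value after IMQ. DUSP6, a feedback inhibitor of ERK signaling, was at 45707 in Ctrl, 45505 in IMQ, and 46706 in IMQ+DMD. Its log2 difference after IMQ was -0.01 ± 0.06, with a rank of 15445 from the top, and became -0.52 with scaling to spike-in probes. The DUSP6 probe was the 646th brightest of the 58201 in Ctrl. The pixels of its spot were less even than in 96.7% to 100% of spots of like brightness, and what part this plays in its value was not tested. DUSP7 was at 193 in Ctrl, 140 in IMQ, and 110 in IMQ+DMD. It was 1.37-fold lower after IMQ (-0.46 ± 0.18) and was the only member below Ctrl by more than 2 technical SDs. It was beyond 2-fold without normalization (-1.01) and with spike-in probes (-1.20), where 15.7% and 25.5% of all genes were at least 2-fold lower.

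The JNK and p38 phosphatases were all higher after IMQ, with 1 by at least 2-fold. DUSP10 was at 676 in Ctrl, 1829 in IMQ, and 1723 in IMQ+DMD. It was 2.70-fold higher (1.44 ± 0.07) and ranked 665 from the top, and both treated arrays lay above Ctrl. With scaling to spike-in probes its difference was 0.86, under 2-fold. DUSP16 was dim, at 41.9 in Ctrl, 81.8 in IMQ, and 65.4 in IMQ+DMD. Its difference of 0.97 ± 0.31 lay just under the 2-fold threshold with a wide technical SD, and it was 0.17 with scaling to spike-in probes. The 3 probes of DUSP8 differed among themselves. Its brightest probe, which was used for the gene, was at 2056 in Ctrl, 2606 in IMQ, and 2733 in IMQ+DMD, a log2 difference of 0.34 ± 0.07 after IMQ. The DUSP8 probe whose sequence is shown above was at 219, 216, and 220 on the 3 arrays (-0.02 ± 0.13). The dimmest probe was at 69.3, 77.7, and 62.8 (0.17 ± 0.29). Only the brightest DUSP8 probe thus differed from Ctrl by more than 2 technical SDs.

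DUSP14, the atypical small phosphatase, was at 4800 in Ctrl, 6770 in IMQ, and 6167 in IMQ+DMD. It was 1.41-fold higher after IMQ (0.50 ± 0.07). The direction of DUSP14 and DUSP8 depended on the scaling, since with spike-in probes they were -0.05 and -0.23 after IMQ. That scaling moved the median of all genes to -0.70, and no normalization moved it to -0.51. The median of the members was above the median of all genes by 0.88 with the main values and by 0.86 under both of these settings. Both settings differ from each other only by a constant for each array. A difference from the median of all genes removes that constant, so their match was nearly fixed in advance.

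**Figure D3:**
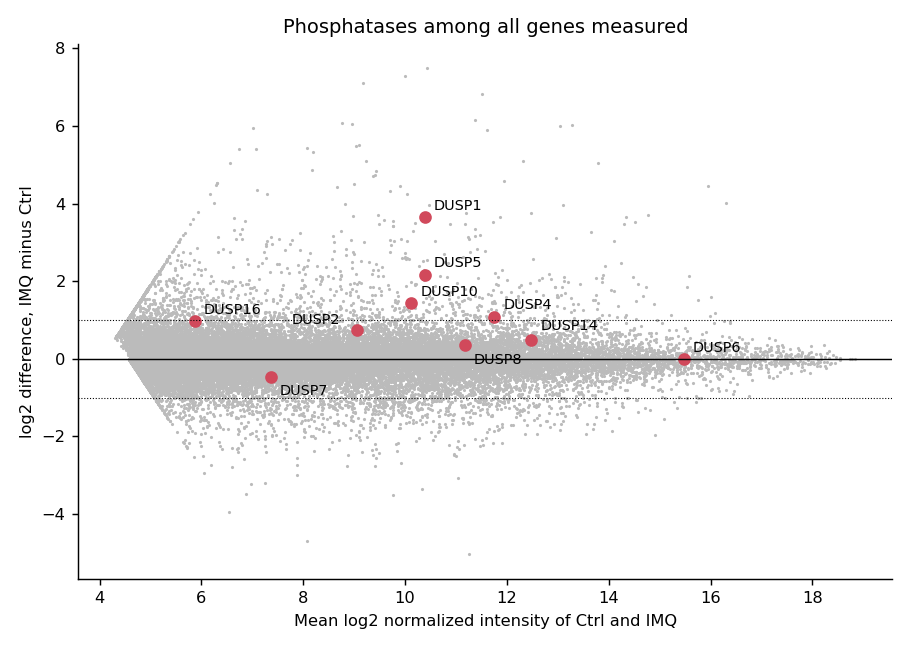
Log2 difference between IMQ and Ctrl (vertical axis) against the mean log2 normalized intensity of both arrays (horizontal axis) for each gene measured (gray), with the 10 phosphatases in red and dotted lines at 2-fold. DUSP1, DUSP5, DUSP10, and DUSP4 lie above the upper line, and DUSP16 lies just under it among dim genes.

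IMQ+DMD against IMQ compared cells given DMD before IMQ with cells given IMQ alone. At least 2-fold higher were 0 of the 10 members, against 1.19% of the 31712 genes measured, and at least 2-fold lower were 0, against 1.27%. The median log2 difference was -0.16, with 7 of 10 below 0, and that of all genes was 0.00. DUSP2, DUSP1, DUSP5, and DUSP14 were lower by more than 2 technical SDs, against 14.7% of all genes, and 0 members were higher by as much, against 15.4%. DUSP2 had the largest difference, 1.59-fold lower (-0.67 ± 0.08), and ranked 1272 from the bottom. DUSP1 was 1.23-fold lower (-0.30 ± 0.06), DUSP5 1.14-fold (-0.18 ± 0.06), and DUSP14, at -0.13 ± 0.06, lay just past 2 technical SDs. These 4 stayed below 0 under each of the 8 alternative ways of processing the values, DUSP2 between -0.68 and -0.44 and DUSP1 between -0.43 and -0.19. DUSP5 lay between -0.32 and -0.07 and DUSP14 between -0.27 and -0.03. With scaling to spike-in probes, DUSP5 and DUSP14 thus fell short of 2 technical SDs. The alternatives of floor, filter, and mean of probes could not change these 4, each read by a single probe well above background on every array.

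The other members differed by less than 2 technical SDs. DUSP7 (-0.35 ± 0.18) and DUSP16 (-0.32 ± 0.25) were lower by more than DUSP1 was, but with wide technical SDs. They were 0.11 and 0.20 with scaling to spike-in probes. DUSP10 was at -0.09 ± 0.07, DUSP4 at 0.03 ± 0.07, DUSP6 at 0.04 ± 0.05, and DUSP8 at 0.07 ± 0.06. The direction of these 4 was opposite under at least 1 scaling. All 10 members were below 0 without normalization and with scaling to the 75th percentile, and 4 were with spike-in probes. With spike-in probes the median of all genes was 0.29.

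**Figure D4:**
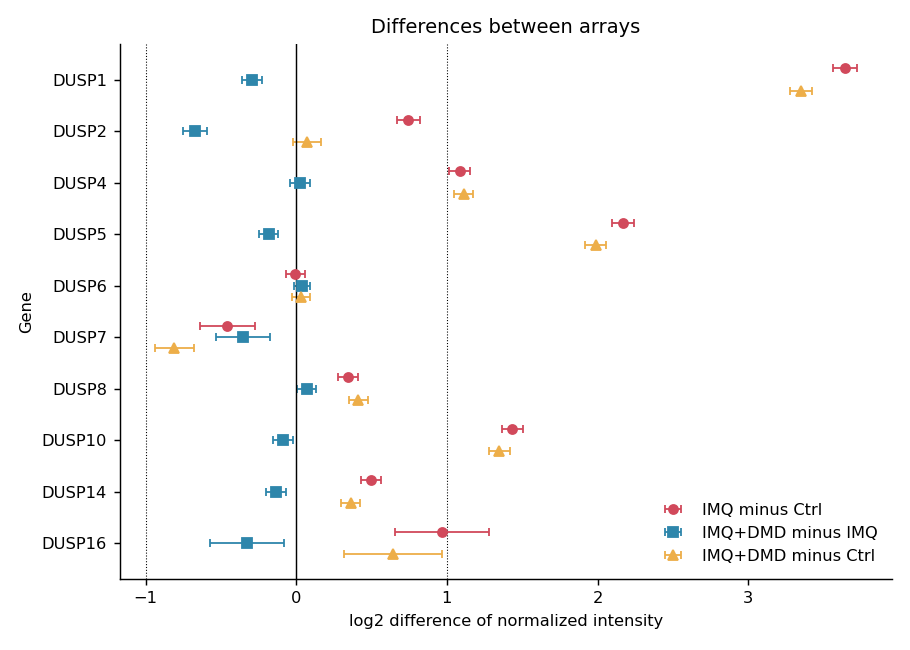
Log2 difference of normalized intensity (horizontal axis) for each phosphatase (vertical axis) in the 3 comparisons; bars are the technical SD of the difference and dotted lines mark 2-fold. The circles (IMQ minus Ctrl) and triangles (IMQ+DMD minus Ctrl) of DUSP1, DUSP4, DUSP5, and DUSP10 lie beyond 1, and the squares (IMQ+DMD minus IMQ) all lie between -0.67 and 0.07.

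IMQ+DMD against Ctrl asked whether the activated, DMD-treated cells differed from the untreated ones. It shares the IMQ+DMD array with the comparison before it and the Ctrl array with the first. At least 2-fold higher were 4 of the 10 members, against 3.05% of the 33729 genes measured, and at least 2-fold lower were 0, against 4.86%. They were again DUSP1 (10.2-fold, 3.35 ± 0.08), DUSP5 (3.96-fold, 1.99 ± 0.07), DUSP10 (2.55-fold, 1.35 ± 0.07), and DUSP4 (2.16-fold, 1.11 ± 0.06). Without normalization and with spike-in probes, 2 members passed the threshold in place of 4, with DUSP10 and DUSP4 under it. DUSP2 was at its Ctrl level within the technical SD (0.07 ± 0.09), and with these settings its value was as low as -0.32. DUSP7 was 1.75-fold lower (-0.81 ± 0.13), the only member below Ctrl, and was beyond 2-fold without normalization (-1.12). DUSP16 (0.64 ± 0.33), DUSP8 (0.41 ± 0.06), and DUSP14 (0.36 ± 0.06) were higher than Ctrl by less than 2-fold, the last 2 of them below 0 without normalization (-0.09 and -0.11). DUSP6 was at 0.03 ± 0.06. The median of the members was 0.53, and that of all genes was 0.05.

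The rest of the pathway was read from lists of genes by their role. Their counts after IMQ stand beside 4.2% of all genes at least 2-fold higher and 3.6% lower. Other dual-specificity phosphatases had 0 of 14 measured genes at least 2-fold higher and 0 lower after IMQ. The median of that list was 0.07, beside -0.02 for all genes. The highest was DUSP22 (0.85, and 1.53 on its other probe) and the lowest DUSP23 (-0.56). Between IMQ+DMD and IMQ they spanned DUSP26 (-0.89) to DUSP9 (0.41), with 0 of 13 beyond 2-fold. Between IMQ+DMD and Ctrl they spanned DUSP26 (-0.94) to DUSP22 (0.56). The other phosphatases that act on MAP kinases had 0 of 8 beyond 2-fold in each comparison. Their median after IMQ was 0.15, between PTPN7 (-0.89), a tyrosine phosphatase of ERK and p38 in blood cells, and PPP2CB (0.48), a catalytic subunit of PP2A. With DMD these spanned -0.20 (PTPRR, technical SD 0.37) to 0.12 (PPP2CB), and PTPN7 was -0.77 and PPP2CB 0.60 against Ctrl. By the probe used for each gene, the 2-fold threshold after IMQ was thus passed by 4 of the 10 members and by 0 genes of both lists. DUSP22 passed it on its other probe.

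Next came the kinases that the phosphatases oppose and those above and below them. Of the MAP kinases, 0 of 12 were beyond 2-fold after IMQ and the median was 0.00, between MAPK15 (-0.64) and MAPK6 (0.54). MAPK15 was dim, with a technical SD of 0.52, and its other probe was at 0.43. With DMD the MAP kinases spanned MAPK11 (-0.30) to MAPK15 (0.95, technical SD 0.47, and -0.04 on its other probe). Against Ctrl they spanned MAPK12 (-0.85) to MAPK6 (0.62). Of the MAP kinase kinases, 1 of 7 was at least 2-fold higher after IMQ, MAP2K3 (1.93, a kinase of p38), and 1 was lower, MAP2K6 (-1.10), which also acts on p38. The median of that list was 0.17. With DMD it spanned MAP2K5 (-0.14) to MAP2K6 (0.30), and against Ctrl MAP2K3 was 2.11 and MAP2K6 -0.80.

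Of the MAP kinase kinase kinases, 2 of 13 were at least 2-fold higher after IMQ, MAP3K8 (1.80), which carries toll-like receptor signals to ERK, and MAP3K4 (1.03). Their other probes gave 0.52 and 0.59. The lowest was MAP3K6 (-0.995, just short of 2-fold, and -0.36 on its other probe), and the median was -0.05. With DMD the list spanned MAP3K5 (-0.32) to MAP3K2 (0.10), and against Ctrl MAP3K6 (-0.95) to MAP3K8 (1.79). Of the kinases downstream, 1 of 10 was at least 2-fold higher, RPS6KA2 (1.20, with other probes from 0.87 to 1.34), and 1 lower, MAPKAPK3 (-1.09), around a median of 0.15. With DMD they spanned RPS6KA3 (-0.49) to MKNK1 (0.35), and against Ctrl RPS6KA2 was 1.04 and MAPKAPK3 -1.03. MAP2K3 and MAP3K8 had the highest differences after IMQ in the kinase lists, and in IMQ+DMD against IMQ they were at 0.18 and -0.01. Other probes were as low as -0.23 for MAP2K3 and -0.33 for MAP3K8 in that comparison.

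MAP kinases induce immediate-early and feedback genes as they do several of the phosphatases. At least 2-fold higher after IMQ were 7 of 17 measured genes, against 4.2% of all genes, and 1 was lower, against 3.6%. Among the 7, other probes were as low as -0.16 for ATF3 and -0.07 for the feedback gene SPRY4. The median of the list was 0.77. The highest was IER3, an early response gene, at 5.10 and 5.18 on its probes, and the lowest was SPRED1, an inhibitor of ERK signaling, at -1.37. With DMD 0 of 17 were beyond 2-fold, and the list spanned MCL1 (-0.88), a survival factor of the BCL2 family, to the transcription factor ATF3 (0.51). The median with DMD was -0.21, beside -0.16 for the phosphatases. That of the list depended on the probes. As a difference from all genes it was -0.06 with the mean of all probes, in place of -0.21. Against Ctrl, IER3 was 4.78 and SPRED1 -1.99. In that comparison 7 genes were at least 2-fold higher, against 3.05% of all genes, and 1 lower, against 4.86%.

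**Figure D5:**
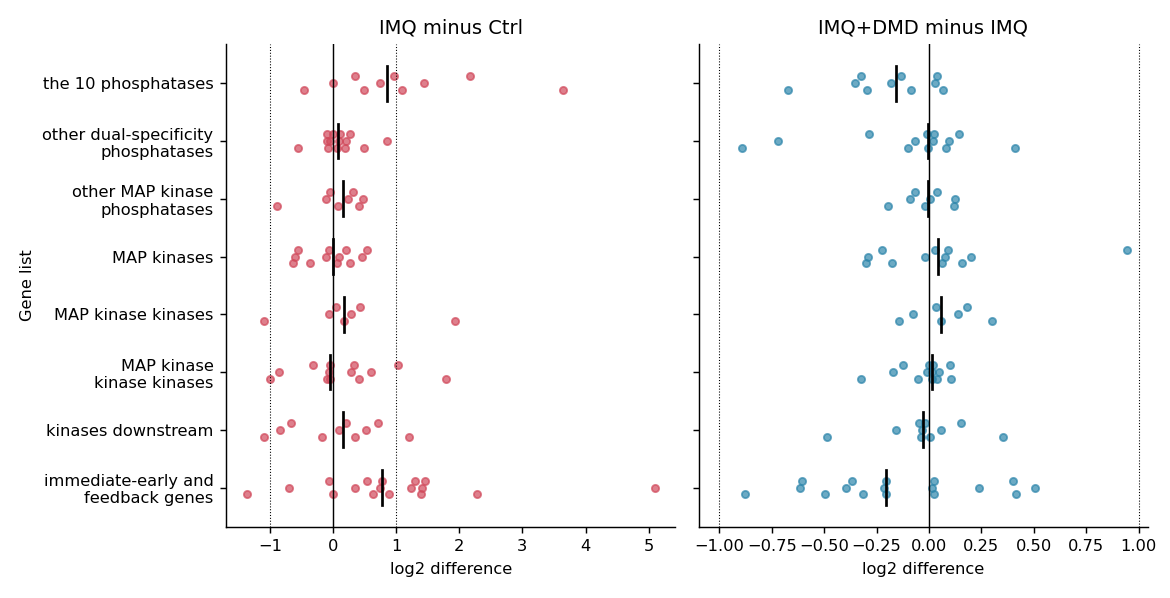
Log2 differences (horizontal axes) of the genes of each list (points, rows) and the list median (black bar) for IMQ minus Ctrl on the left and IMQ+DMD minus IMQ on the right, with dotted lines at 2-fold. The 10 phosphatases and the immediate-early and feedback genes have medians of 0.85 and 0.77 on the left, and no point passes 2-fold on the right.

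The genes most like DUSP1 and DUSP7, the members with the highest and lowest value after IMQ, were sought among 18330 other genes well above background on the 3 arrays. Likeness was the distance between the pairs of log2 differences, IMQ minus Ctrl and IMQ+DMD minus IMQ, which share the IMQ array. Nearest to DUSP1, at distances of 0.11 to 0.13 log2 units, were NCF1B, NCF1, EVA1A, MET, and HES4. NCF1 encodes a subunit of the phagocyte NADPH oxidase and NCF1B is its near-identical copy, so their probes may read the same RNA. Their differences after IMQ were 3.55 and 3.75. Nearest to DUSP7, at 0.01 to 0.02 log2 units, were PTPN21, LOC100506974, PRKXP1, TUBGCP5, and C2orf81, with differences after IMQ from -0.46 to -0.45. These distances are smaller than the technical SD of DUSP7, so the order among the 5 has no weight. The distances to DUSP1 differ among themselves by less than its technical SDs (0.08 and 0.06), so that order has no weight either. EVA1A was also dim in Ctrl (28.3).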

How the data were processed

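RNA of 3 THP-1 samples, 1 per condition, was measured on one-color arrays. The authors scanned them with Feature Extraction 10.5.1.1 and deposited the scanner output and a table of raw and quantile-normalized intensity for each probe. The scanner marks (well above background, outlier, saturated) are deposited values of another kind, 0 or 1 for each spot. Array positions are in hg19, and promoter sequences are from RefSeq (GRCh38.p14).

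From these files, log2 of the normalized intensity was taken. Where a probe was not well above background, its value was raised to the lowest one among probes that were, if it lay below that. A difference was given where the brighter array was well above background, and 2-fold was the threshold. The probe with the highest mean log2 value stood for a gene. The number of arrays limits the precision, and no p-value was computed. The noise within an array came from the 300 probes with 10 spots, using those within 0.5 log2 units of a probe's brightness. Python 3.11.15 (numpy 2.4.6, pandas 2.3.3, matplotlib 3.10.9) and limma 3.58.1 in R 4.3.3 were used, and the steps were tested on simulated data.

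All probes of the members were named, together with the genes of each list with the highest and lowest difference in a comparison and the 5 genes nearest to DUSP1 and to DUSP7. MAP3K4 and SPRY4 were named outside that rule after their values were seen. The members and lists were chosen with earlier results of these data known. The 10 alternatives were a separate quantile normalization without outlier spots, scaling to the 75th percentile, no normalization, background correction by normexp (offset 50), scaling to 8 spike-in probes of 35 spots, no floor and no filter, both arrays well above background, the mean of all probes of a gene, and thresholds of 1.5-fold and 4-fold. Spike-in probes that were near background on an array were left out. The enrichment results named in the series description were not used here.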

Additional observations from a re-analysis of the deposited data

How the results depend on the processing

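Over the 8 alternatives that recompute values, 216 of 240 member values kept their sign. Of the 240, 156 moved by no more than the technical SD and 84 by more, and 0 of the differences beyond 2-fold reversed. Part of this agreement was fixed in advance. The settings of floor and filter could not change a member value, since every member probe was well above background on each array. The mean of all probes could change only DUSP8. After IMQ, 4 members were at least 2-fold higher. The count was 3 without normalization (1.76% of all genes), 2 with spike-in probes (1.36%, with DUSP10 and DUSP4 under the threshold), 6 at 1.5-fold (10.7%), and 2 at 4-fold (0.910%). DUSP7 was the 1 member that was lower without normalization and with spike-in probes (-1.01 and -1.20), where 15.7% and 25.5% of all genes were lower. Between IMQ+DMD and IMQ, 1 member (DUSP2) was lower at 1.5-fold, against 5.47% of all genes. Between IMQ+DMD and Ctrl, the count of 4 became 2 without normalization (1.53% of all genes) and with spike-in probes (1.63%), 5 at 1.5-fold (9.78%), and 1 at 4-fold (0.626%). DUSP7 was the 1 member that was lower without normalization, with spike-in probes, and at 1.5-fold, against 10.2%, 9.41%, and 11.5% of all genes.

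The medians that follow are given as differences from the median of all genes. For the members, normexp gave 0.60 in place of 0.88 after IMQ and 0.35 in place of 0.48 between IMQ+DMD and Ctrl. For the lists, the main value stands in parentheses after those from scaling to the 75th percentile, no normalization, and spike-in probes, of which equal ones are printed once. These settings differ from each other only by a constant for each array, which a difference from the median of all genes removes. Their near match was thus fixed in advance and counts as 1 result. After IMQ they were 0.12 and 0.16 for MAP kinases (0.0183), 0.35 and 0.34 for MAP kinase kinases (0.19), 0.11 for MAP kinase kinase kinases (-0.0338), 0.29 for kinases downstream (0.17), and 0.92 for immediate-early and feedback genes (0.79). With DMD, against IMQ, they were -0.0791, -0.0786, and -0.0795 for MAP kinases (0.0405), -0.0944, -0.0939, and -0.0948 for MAP kinase kinases (0.0526), -0.14 for MAP kinase kinase kinases (0.00868), -0.19 and -0.20 for kinases downstream (-0.0316), -0.28 for immediate-early and feedback genes (-0.21), -0.18 for other dual-specificity phosphatases (-0.00954), and -0.084, -0.0835, and -0.0844 for other phosphatases of MAP kinases (-0.0111). In IMQ+DMD against Ctrl they were -0.0863, -0.0825, and -0.0833 for MAP kinases (0.0255), 0.0344, 0.0381, and 0.0374 for MAP kinase kinases (0.15), -0.16 for MAP kinase kinase kinases (-0.0852), 0.0179, 0.0217, and 0.0209 for kinases downstream (0.0907), 0.77 for immediate-early and feedback genes (0.84), and -0.0861, -0.0824, and -0.0831 for other dual-specificity phosphatases (0.0312). The mean of all probes of a gene gave 0.30 for MAP kinase kinase kinases (-0.0338), and 0.061 for other phosphatases of MAP kinases (0.17) after IMQ, -0.0565 for immediate-early and feedback genes (-0.21) with DMD against IMQ, and 0.11 for MAP kinase kinase kinases (-0.0852), and 0.59 for immediate-early and feedback genes (0.84) in IMQ+DMD against Ctrl. Normexp gave 0.0931 for other phosphatases of MAP kinases (0.17) after IMQ. In IMQ+DMD against Ctrl, normexp gave 0.58 for immediate-early and feedback genes (0.84), and no floor and no filter gave 0.75 for immediate-early and feedback genes (0.84). The cause of these shifts was not tested. With 1 array per condition nothing here separates a treatment from a culture, a labeling reaction, or a place on the slide, and no paired analysis was possible because each condition had 1 sample.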
